A study of Homo sapiens with 90 samples.

Results

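The subject is a set of 10 phase II conjugation enzymes of the liver, namely the glucuronosyltransferases UGT2B4, UGT2B7, UGT2B10, UGT2B11 and UGT2B15, the sulfotransferases SULT1E1 and SULT2A1, and the glutathione transferases GSTA1, GSTA2 and GSTA4. Members were chosen by name: every probe set whose gene symbol in the platform annotation is one of these 10 was taken. This gave 12 probe sets for 6 of the 10 genes, out of 54715 probe sets and 19774 genes with a probe set of their own on the array. Each of the 12 carries 1 symbol, and 0 member probe sets carry several. UGT2B7, UGT2B10, UGT2B11 and GSTA2 have no probe set under these symbols in the annotation and were not analysed here.

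The arrays came from HepaRG cells, a human hepatic line that differentiates into hepatocyte-like and biliary-like cells. They were treated with fenbuconazole, imazalil or 2,4-D, and RNA was taken after 24 h. Fenbuconazole is a triazole fungicide, imazalil an imidazole fungicide and 2,4-D a chlorophenoxy herbicide, and each was given at 9 concentrations from 0.001 to 10 µM. All cells, controls included, received 0.2% DMSO, and each group has 3 arrays, 1 with each of the codes P1, P2 and P3. The methods describe replicates as separate batches of cells, and the code was taken to mark the batch, which the labels do not state. The same 3 DMSO arrays serve as the control of all 3 chemicals, so the comparisons with DMSO are not independent of each other, and all values come from 1 cell line.

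Phase II enzymes attach a polar group to drugs, hormones and bile acids, or to the products of cytochrome P450 oxidation, so that these can leave the cell and the body. Glucuronosyltransferases transfer glucuronic acid from UDP-glucuronic acid, sulfotransferases transfer sulfate from PAPS, and glutathione transferases join glutathione to electrophiles. In the liver several of these genes are controlled by the xenobiotic receptors CAR and PXR, by AHR and NRF2, and by nuclear receptors that sense bile acids and fatty acids.

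All values are log2 expression after RMA, a method that corrects the background, normalizes the arrays and summarizes the probes of a probe set. In vehicle-treated cells the members lay far apart on this scale. The GSTA1 probe set 203924_PM_at had the highest DMSO mean of the 12, between 11.87 and 11.92 in the 3 normalization runs, above 99.7% of all probe sets. UGT2B15 (207392_PM_x_at) lay at 10.89 to 10.95, SULT2A1 (206292_PM_s_at) at 10.20 to 10.27 and UGT2B4 (206505_PM_at) at 9.76 to 9.82. GSTA4 (202967_PM_at) lay at 6.91 to 6.98 and SULT1E1 (219934_PM_s_at) at 6.20 to 6.22, which put SULT1E1 above 81.8% to 82.3% of all probe sets. The second probe sets of GSTA1 (215766_PM_at, 2.86 to 3.14) and GSTA4 (235405_PM_at, 2.74 to 2.92) lay near the median of the arrays, which ran from 2.81 to 2.97. These positions describe probe sets, and since probe sets differ in binding they are not an order of transcript amounts between genes. The suffix x marks probe sets whose probes may also bind other transcripts, which matters for UGT2B15 because the UGT2B genes are close relatives in 1 cluster.

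**Figure D1:**
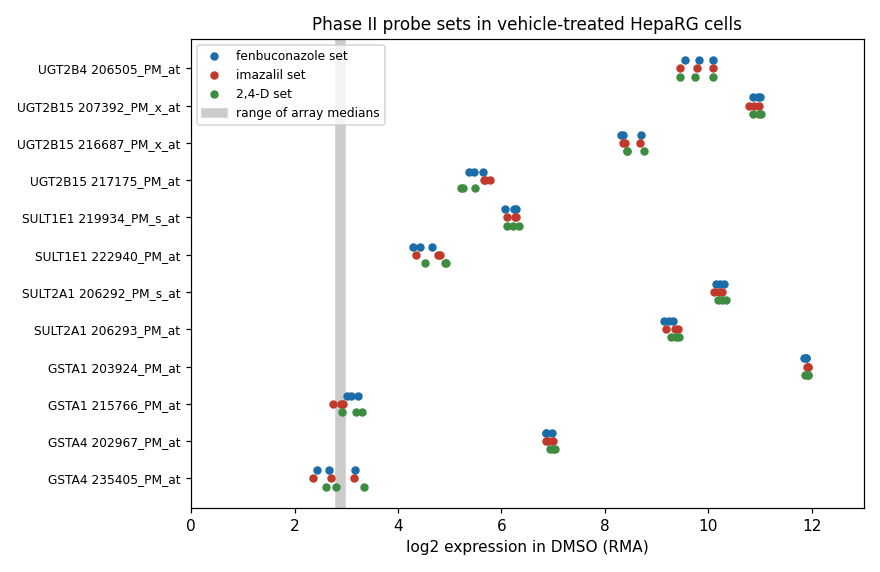
log2 expression (RMA) in the 3 DMSO arrays for the 12 member probe sets, with 1 point per array and 1 colour per normalization run. The main probe sets of GSTA1, UGT2B15, SULT2A1 and UGT2B4 lie well to the right of the grey band of array medians (2.81 to 2.97), and 215766_PM_at and 235405_PM_at lie in or beside it.

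Across the 3 chemicals and 9 concentrations, the 12 probe sets gave 324 comparisons with DMSO, of which 2 passed the threshold (an adjusted p under 0.05) and 21 had an unadjusted p under 0.05. Over the same 27 conditions 0.0297% of all comparisons of probe sets passed. Both calls were at 10 µM imazalil and both were sulfotransferases: SULT1E1 fell and SULT2A1 rose. At 10 µM imazalil 2 of the 12 probe sets were thus called, where 0.406% of all probe sets were called, 0.254% higher and 0.152% lower. There 4 of the 12 had an unadjusted p under 0.05 in limma, beside 4553 of all 54715 probe sets. At 10 µM fenbuconazole 0 of 12 were called by limma (0.345% of all probe sets), with 3 at an unadjusted p under 0.05. At 10 µM 2,4-D 0 of 12 were called (0% of all probe sets), with 0 at an unadjusted p under 0.05. Over all 54715 probe sets such a p was found for 3557 with fenbuconazole and 3035 with 2,4-D. The median difference over the 12 probe sets was 0.088 for imazalil, -0.014 for fenbuconazole and 0.060 for 2,4-D, beside medians over all probe sets of 0.0049, -0.00033 and -0.00094.

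SULT1E1, the sulfotransferase that inactivates oestrogens, was read by 219934_PM_s_at and 222940_PM_at. In the DMSO arrays of the imazalil set 219934_PM_s_at stood at 6.11, 6.28 and 6.26 in batches P1, P2 and P3. At 10 µM imazalil the values were 5.32, 5.33 and 5.55. All 3 treated arrays lay below all 3 DMSO arrays, and below all 27 arrays of DMSO and the lower concentrations, whose lowest value was 5.67. The log2 difference was -0.81 (SE 0.15, limma adjusted p = 0.00477), which is 0.569-fold of DMSO (95% interval 0.461 to 0.701), and within the batches it was -0.79, -0.95 and -0.71. In bulk RNA of a culture with several cell forms, fewer cells of one form and less RNA per cell cannot be told apart. The direction held when the arrays of any 1 batch were left out, but the call did not: the difference was -0.83 without P1, -0.75 without P2 and -0.87 without P3, with adjusted p of 0.0557, 0.338 and 0.0982.

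At the next lower concentration the SULT1E1 difference was smaller and did not pass the threshold. At 3 µM imazalil 219934_PM_s_at read 5.67, 5.94 and 5.99, all below the DMSO arrays, with a log2 difference of -0.35 (SE 0.15, limma adjusted p = 0.892). From 0.001 to 1 µM imazalil the SULT1E1 arrays ranged from 5.90 to 6.78. They overlapped DMSO at each of these concentrations except 0.03 µM, where all 3 arrays (6.47 to 6.52) lay above DMSO, with a difference of 0.28 that did not pass the threshold (limma adjusted p = 0.929). Against the 15 arrays of the 5 lowest concentrations (0.001 to 0.1 µM), a reference without the DMSO arrays, SULT1E1 at 10 µM imazalil fell by 0.92 (SE 0.11, limma adjusted p = 1.05e-05). In that comparison 2 of 12 member probe sets were called, 1 in each direction, beside 1.2% of all probe sets (0.599% higher and 0.598% lower). The 15 reference arrays ran from 5.90 to 6.52 with a median of 6.35, so that the 3 arrays at 10 µM did not overlap them. Both calls held here without any 1 batch, with SULT1E1 between -0.97 and -0.89 (adjusted p 0.00129 to 0.00839) and SULT2A1 between 0.56 and 0.69 (adjusted p 0.00234 to 0.00388).

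With fenbuconazole the SULT1E1 difference was also negative, but uneven between batches. Its 10 µM values were 5.93, 5.23 and 6.04, against 6.07, 6.24 and 6.28 in DMSO. All 3 lay below the DMSO arrays, but batch P2 lay far below the other 2, with a difference of -1.01 within its batch against -0.14 in P1 and -0.24 in P3. The mean difference of -0.46 (SE 0.20) did not pass the threshold (limma adjusted p = 0.665), nor did the difference of -0.52 from the 5 lowest concentrations (adjusted p = 0.14). Under 2,4-D the SULT1E1 values at 10 µM were 6.42, 6.27 and 6.74, against 6.11, 6.23 and 6.34 in DMSO, and the 2 groups overlapped. The difference there was 0.25 (SE 0.14, 95% interval -0.03 to 0.53, limma adjusted p = 0.923).

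The second SULT1E1 probe set, 222940_PM_at, lay lower (DMSO means 4.46 to 4.79) and had a larger spread, with a median SD within groups of 0.23 against 0.17 for 219934_PM_s_at. At 10 µM imazalil it read 4.11, 3.85 and 4.79, against 4.35, 4.81 and 4.77 in DMSO, and the groups overlapped. Its difference from DMSO was -0.39 (SE 0.23, limma adjusted p = 0.702) at 10 µM and -0.40 at 3 µM, where batch P3 read 3.51. At 10 µM its difference from the 5 lowest imazalil concentrations was -0.63 (adjusted p = 0.0954), and without batch P3 it became -0.92 and passed the threshold (adjusted p = 0.00416). At 10 µM fenbuconazole 222940_PM_at differed from DMSO by -0.33 (limma adjusted p = 0.929), with 0.40, -1.10 and -0.27 within P1, P2 and P3. This difference reached 0.063 when 1 batch was left out. Both SULT1E1 probe sets were thus negative on average at 10 µM of both fungicides, and both were positive at 10 µM 2,4-D, where 222940_PM_at differed by 0.31. Against the same 3 DMSO arrays, 222940_PM_at was positive in 23 and 219934_PM_s_at in 19 of the 27 conditions.

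SULT2A1, which sulfates dehydroepiandrosterone and bile acids, moved the other way. Its probe set 206292_PM_s_at read 10.27, 10.22 and 10.12 in DMSO and 10.83, 10.76 and 10.89 at 10 µM imazalil. The 3 treated arrays lay above all 27 arrays of DMSO and the lower concentrations, the highest of which was 10.51. SULT2A1 rose by 0.63 on the log2 scale (SE 0.09, limma adjusted p = 0.000335), or 1.54-fold (95% interval 1.35 to 1.76), and by 0.56, 0.54 and 0.77 within the 3 batches. The rise was 0.66 without P1, 0.67 without P2 and 0.55 without P3, and the adjusted p then lay just above the threshold, at 0.0627, 0.0639 and 0.0661.

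At 3 µM imazalil SULT2A1 read 10.42, 10.51 and 10.26, of which the first 2 lay above the DMSO arrays, with a difference of 0.20 (limma adjusted p = 0.941). The rise at 10 µM was 0.64 against the 5 lowest imazalil concentrations (SE 0.07, adjusted p = 1.91e-06). With fenbuconazole at 10 µM it read 10.52, 10.47 and 10.50, against 10.30, 10.23 and 10.15 in DMSO, and the groups did not overlap. The difference of 0.27 from DMSO did not pass the threshold (SE 0.09, limma adjusted p = 0.459), while that of 0.36 from the 5 lowest fenbuconazole concentrations did (SE 0.07, adjusted p = 0.00686). That was the only call among the 12 member probe sets in this comparison, where 1.06% of all probe sets were called. An unadjusted p under 0.05 in limma was found for 5 of the 12, beside 4324 of all 54715 probe sets. The call was lost without P2 (0.35, adjusted p = 0.48) and without P3 (0.34, adjusted p = 0.174).

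The 10 µM 2,4-D arrays of SULT2A1, at 10.52, 10.48 and 10.41, also lay above all 3 DMSO arrays and above all 15 arrays of the 5 lowest 2,4-D concentrations, which ended at 10.39. Only 2 of the 3 lay above all 27 arrays of DMSO and the lower 2,4-D concentrations, the highest of which was 10.42. The differences were 0.20 from DMSO (limma adjusted p = 0.902) and 0.27 from the lowest concentrations (SE 0.08, adjusted p = 0.217), and in the second comparison 0 of 12 member probe sets were called by limma beside 0.225% of all probe sets, with 3 at an unadjusted p under 0.05. Over all 54715 probe sets such an unadjusted p was found for 4538 in that comparison. With a variance prior that follows the level and allows outliers, 206292_PM_s_at passed there (adjusted p = 0.0388). The second SULT2A1 probe set, 206293_PM_at, differed from DMSO by 0.39 with imazalil (limma adjusted p = 0.44), 0.34 with fenbuconazole (0.708) and 0.13 with 2,4-D (0.963) at 10 µM. In both fungicides batch P2 of this probe set (9.36 and 9.28) lay below P1 and P3 and within the range of the DMSO arrays.

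**Figure D2:**
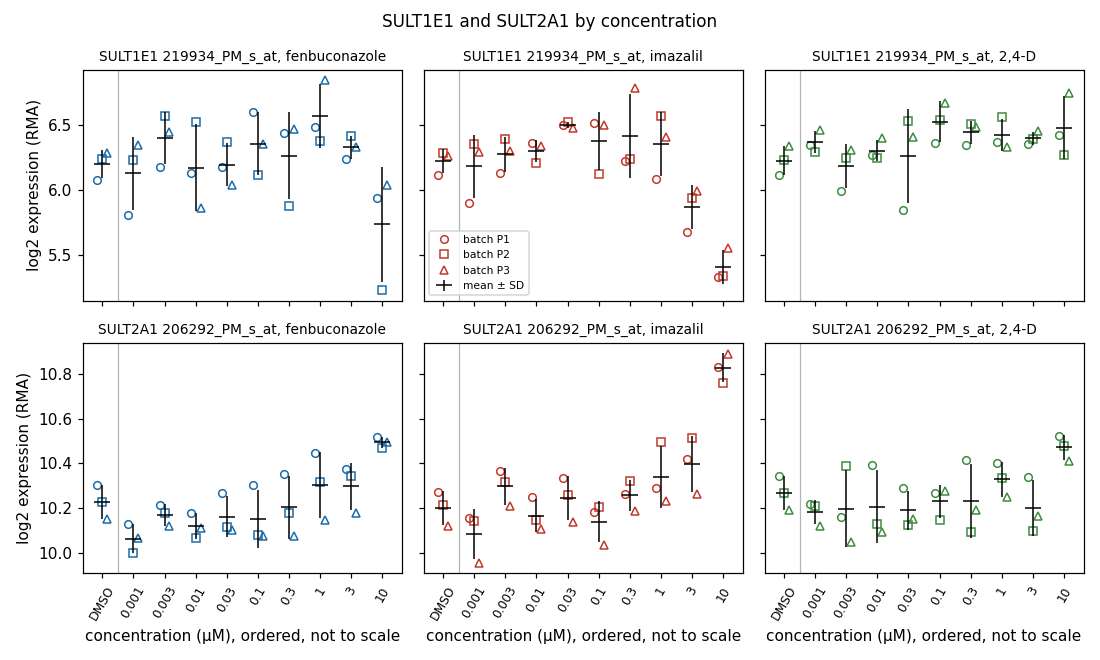
log2 expression (RMA) of SULT1E1 (219934_PM_s_at, top) and SULT2A1 (206292_PM_s_at, bottom) in every array, by concentration in µM, with fenbuconazole, imazalil and 2,4-D from left to right. Symbols mark the batch of cells, and the black cross gives the mean ± SD of 3 arrays. Imazalil at 10 µM holds the lowest SULT1E1 group and the highest SULT2A1 group.

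Ordered by the difference from DMSO over the 27 conditions, SULT1E1 (219934_PM_s_at) was lowest at 10 µM imazalil (-0.81), then at 10 µM fenbuconazole (-0.46) and 3 µM imazalil (-0.35). The fourth lowest condition, 0.001 µM fenbuconazole, was at -0.07, and the highest, 1 µM fenbuconazole, at 0.37. SULT2A1 (206292_PM_s_at) was highest at 10 µM imazalil (0.63), then at 10 µM fenbuconazole (0.27), 10 µM 2,4-D (0.20) and 3 µM imazalil (0.20). Apart from 10 µM imazalil, no condition of either probe set differed from DMSO beyond the threshold. The arrays of neighbouring conditions in the SULT1E1 order overlapped from the first to the fourth, whereas in the SULT2A1 order those of the first condition lay above those of the second and the next ones overlapped. The moderated F test over all 9 concentrations of a chemical called both for imazalil, with limma adjusted p of 0.00194 for SULT1E1 and 0.00125 for SULT2A1, where 0.214% of all probe sets were called. Without the arrays of any 1 batch it called 0 of 12. It called 0 of 12 for fenbuconazole (0.232% of all probe sets), with 2 of the 12 probe sets at an unadjusted p under 0.05. For 2,4-D it called 0 of 12 (0.00548%), with 4 of the 12 probe sets at an unadjusted p under 0.05. Over all 54715 probe sets such a p was found for 2415 with fenbuconazole and 3836 with 2,4-D.

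The 2 sulfotransferases lie on different chromosomes, and the sequence upstream of each is shown because these are the members that moved, in opposite directions. The windows are the 250 bases before the RefSeq gene start in GRCh38.p14, on the minus strand, read 5′ to 3′ (SULT1E1 chr4:69860146-69860395, SULT2A1 chr19:47886316-47886565). Capitals mark a match to TATAAA.
SULT1E1: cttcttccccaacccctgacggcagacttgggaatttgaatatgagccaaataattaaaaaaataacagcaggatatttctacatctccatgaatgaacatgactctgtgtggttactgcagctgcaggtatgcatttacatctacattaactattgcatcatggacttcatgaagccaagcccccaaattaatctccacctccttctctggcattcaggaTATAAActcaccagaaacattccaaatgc
SULT2A1: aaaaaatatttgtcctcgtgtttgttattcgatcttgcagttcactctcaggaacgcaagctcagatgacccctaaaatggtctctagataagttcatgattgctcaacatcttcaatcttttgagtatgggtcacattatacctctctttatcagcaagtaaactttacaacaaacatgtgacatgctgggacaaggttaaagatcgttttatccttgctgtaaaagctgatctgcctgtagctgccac
Windows were found for 9 of the 10 members, all but UGT2B4, and were searched on both strands for TATAAA and for motifs of receptors and factors. The SULT1E1 window holds TATAAA beginning 29 bases before the start, and the windows of GSTA1 and GSTA2 hold it 30 bases before; it occurs in 10.7% of the 35116 windows of this length in the table. The SULT2A1 window does not hold TATAAA. Neither sulfotransferase window holds AGGTCA, a binding sequence of nuclear receptors (in 12.1% of all windows), or its paired forms, which contain it and overlap with it. These are the direct repeat DR4 with NNNN between copies (0.0142%), the everted repeat ER6, which is TGAACT and AGGTCA with NNNNNN between (0.00854%), and the inverted repeat IR0 with no base between (0.00285%). Nor do the windows hold the antioxidant response core (TGAC and GC with NNN between, 10.9%) or the xenobiotic response core GCGTG (32.2%). These letters were looked for in this window only, and a match or its absence is a description of the sequence.

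**Figure D3:**
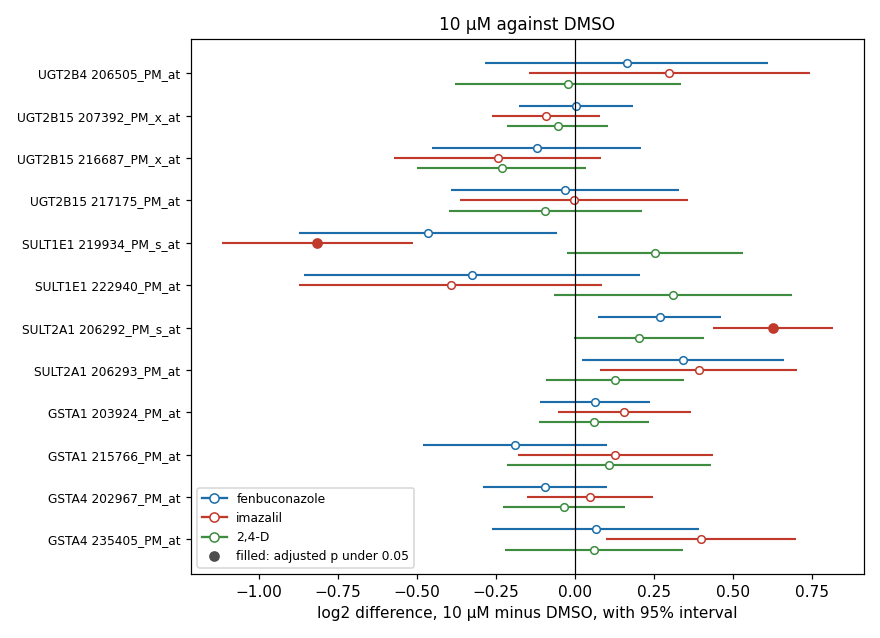
log2 difference of 10 µM minus DMSO with its 95% interval for the 12 member probe sets and 3 chemicals, 3 arrays per group. Filled points passed the threshold (adjusted p under 0.05): SULT1E1 219934_PM_s_at (-0.81) and SULT2A1 206292_PM_s_at (0.63), both with imazalil.

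The glucuronosyltransferases with a probe set were UGT2B4, which conjugates bile acids and catechol oestrogens, and UGT2B15, which conjugates androgens. Neither was called at any concentration of any chemical. UGT2B4 (206505_PM_at) ranged from 9.26 to 10.60 over all arrays, with a median SD within groups of 0.19. Its differences from DMSO ran from -0.15 at 0.03 µM 2,4-D to 0.49 at 3 µM fenbuconazole (smallest limma adjusted p over the 27 conditions 0.472), and 23 of 27 were positive, against the same 3 DMSO arrays. At 10 µM UGT2B4 differed by 0.30 with imazalil (95% interval -0.15 to 0.74), 0.16 with fenbuconazole (-0.28 to 0.61) and -0.02 with 2,4-D (-0.38 to 0.34). Each interval was wide enough to hold the difference of SULT2A1 206292_PM_s_at with the same chemical (0.63, 0.27 and 0.20).

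Of the UGT2B15 probe sets 207392_PM_x_at had the smallest median SD within groups, 0.07. This is the spread of a probe set whose probes may also bind other transcripts. Over the 27 conditions 207392_PM_x_at stayed between -0.09 (10 µM imazalil) and 0.14 (0.003 µM imazalil) of DMSO. At 10 µM its 95% intervals were -0.26 to 0.08 for imazalil, -0.18 to 0.18 for fenbuconazole and -0.21 to 0.11 for 2,4-D. The other 2 UGT2B15 probe sets varied more: 216687_PM_x_at was lowest at 3 µM imazalil (-0.32) and 217175_PM_at highest at 1 µM 2,4-D (0.42), both short of the threshold (limma adjusted p = 0.958 and 0.553). Against the 5 lowest imazalil concentrations, 207392_PM_x_at differed by -0.15 (adjusted p = 0.395) and 216687_PM_x_at by -0.31 (adjusted p = 0.344), and 217175_PM_at by -0.0024. With 2,4-D 216687_PM_x_at differed from the 5 lowest concentrations by -0.25 and 217175_PM_at by -0.28 (adjusted p = 0.472 and 0.484).

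The glutathione transferases were likewise not called in any condition. GSTA1 conjugates a wide range of electrophiles, and its probe set 203924_PM_at ranged from 11.71 to 12.18 over all arrays. Its differences from DMSO lay between -0.09 (0.03 µM fenbuconazole) and 0.16 (1 µM imazalil), and at 10 µM they were 0.16 for imazalil (95% interval -0.05 to 0.37), 0.06 for fenbuconazole (-0.11 to 0.24) and 0.06 for 2,4-D (-0.11 to 0.23). GSTA4 prefers aldehydes from lipid peroxidation, and its probe set 202967_PM_at stayed within -0.09 and 0.16 of DMSO in all 27 conditions. Against the 5 lowest fenbuconazole concentrations 202967_PM_at was 0.891-fold at 10 µM (95% interval 0.802 to 0.990), which was not called. Its log2 difference there was -0.19, -0.22 and -0.09 within P1, P2 and P3. The dim GSTA4 probe set 235405_PM_at differed by 0.41 at 3 µM and 0.40 at 10 µM imazalil (limma adjusted p = 0.848 and 0.395), at levels near the array median, and the dim GSTA1 probe set 215766_PM_at ran from -0.30 to 0.23. Against the 5 lowest imazalil concentrations the 10 µM difference was 0.17 for GSTA1 203924_PM_at and 0.30 for GSTA4 235405_PM_at (limma adjusted p = 0.463 and 0.308). The 8 probe sets of UGT2B4, UGT2B15, GSTA1 and GSTA4 gave 216 comparisons with DMSO, of which 9 had an unadjusted p under 0.05 and 0 passed in limma.

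**Figure D4:**
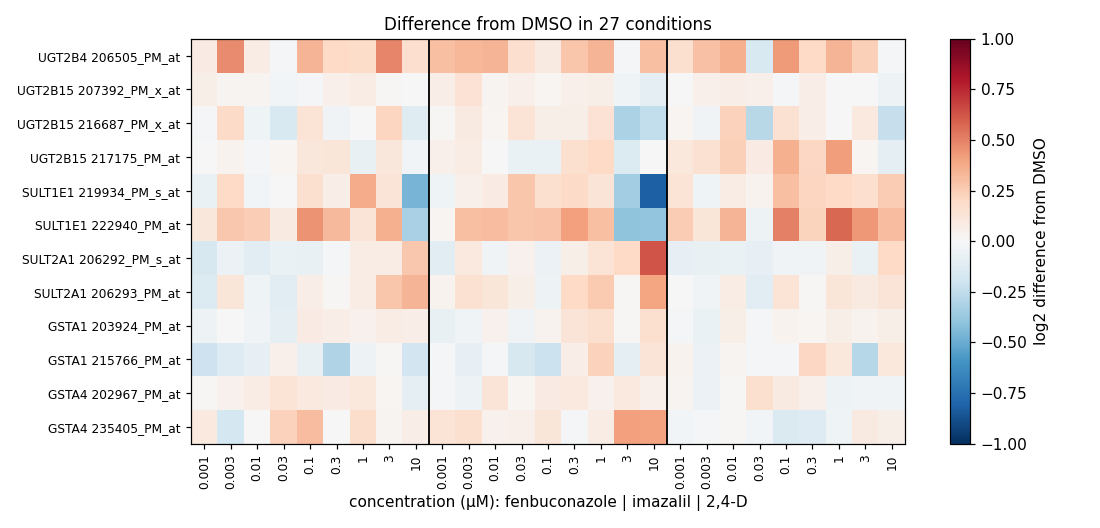
log2 difference from DMSO (colour, blue lower and red higher) of the 12 member probe sets in the 27 conditions, each a mean of 3 arrays, with concentration in µM increasing within each chemical. The strongest colours are the 10 µM imazalil cells of SULT1E1 219934_PM_s_at (-0.81) and SULT2A1 206292_PM_s_at (0.63).

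The 3 chemicals were compared with each other at 10 µM after the DMSO mean of each set was subtracted, in 3 pairs. SULT1E1 (219934_PM_s_at) was lower with imazalil than with 2,4-D by a difference of -1.07 (95% interval -1.42 to -0.72, limma adjusted p = 8.35e-05), and SULT2A1 (206292_PM_s_at) was higher by 0.42 (0.24 to 0.61, adjusted p = 0.00843). These were the 2 calls of 12 in that pair, where 0.389% of all probe sets were called. The call of SULT1E1 held without any 1 batch, whereas that of SULT2A1 was lost without each batch (0.44 without P1, 0.47 without P2 and 0.36 without P3, adjusted p = 0.0965, 0.15 and 0.329). Fenbuconazole differed from 2,4-D in SULT1E1 alone, by -0.72 (95% interval -1.07 to -0.37, adjusted p = 0.0379), 1 call of 12 beside 0.356% of all probe sets. This call was lost without each batch: the difference was -0.85 without P1, -0.55 without P2 and -0.75 without P3, with adjusted p of 0.0894, 0.388 and 0.292, and it was lost with the arrays centred on their medians (-0.71, adjusted p = 0.0608).

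Between the 2 azole fungicides, which carry a triazole and an imidazole ring, 0 of 12 member probe sets were called by limma at 10 µM (0.269% of all probe sets), with 3 at an unadjusted p under 0.05. The difference in SULT2A1 (206292_PM_s_at), fenbuconazole minus imazalil, was -0.36 with a 95% interval of -0.54 to -0.18 and an adjusted p of 0.0704. With the batch as a replicate block it passed (adjusted p = 0.00519), as it did among probe sets above the median level (0.0316). For SULT1E1 the difference was 0.35 with an interval from -0.00088 to 0.70 (adjusted p = 0.779), so a lower level under imazalil or nearly equal levels both lie within it. At 3 µM 0 of 12 were called in each pair (0.0274%, 0.00548% and 0.0658% of all probe sets for fenbuconazole against imazalil, fenbuconazole against 2,4-D and imazalil against 2,4-D), with 5, 0 and 5 at an unadjusted p under 0.05 in limma. Over all 54715 probe sets such a p was found for 6500, 1891 and 4620 in these pairs, and for 3507 between the fungicides at 10 µM. At 3 µM SULT1E1 differed between imazalil and 2,4-D by -0.52 in 219934_PM_s_at and -0.83 in 222940_PM_at (limma adjusted p = 0.393 and 0.312).

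**Figure D5:**
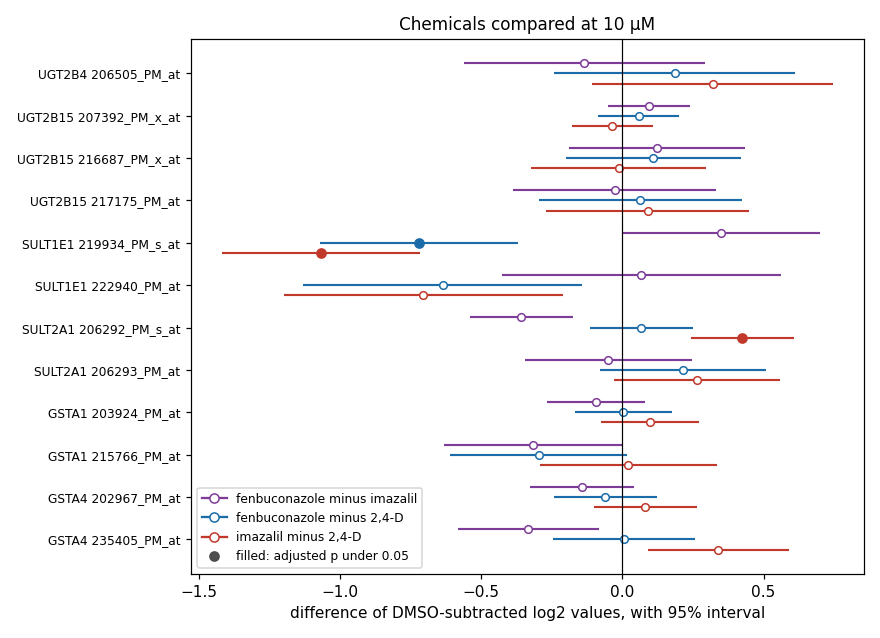
Difference between chemicals at 10 µM in log2 values with the DMSO mean of the set subtracted, with its 95% interval, for the 12 member probe sets. Filled points passed the threshold (adjusted p under 0.05): SULT1E1 219934_PM_s_at for imazalil minus 2,4-D (-1.07) and fenbuconazole minus 2,4-D (-0.72), and SULT2A1 206292_PM_s_at for imazalil minus 2,4-D (0.42).

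Among 48 other phase II genes listed, 36 had a probe set of their own. At 10 µM fenbuconazole 1 of the 36 was lower and 0 higher than DMSO, beside 0.345% of all probe sets called. This was GLYATL1, an acyltransferase related to GLYAT, which fell by 0.78 (SE 0.18, limma adjusted p = 0.0403). Against the 5 lowest fenbuconazole concentrations 3 of 36 were lower, beside 1.06% of all probe sets called. An unadjusted p under 0.05 in limma was found for 14 of 36, beside 4324 of all 54715 probe sets. The 3 called were GLYATL1 (-0.89, adjusted p = 0.00021), the sulfotransferase SULT1B1 (-0.87, adjusted p = 8.47e-05), which conjugates thyroid hormones and small phenols, and the nicotinamide methyltransferase NNMT (-0.26, adjusted p = 0.0475). At 10 µM imazalil 0 of 36 were called against DMSO by limma (0.406% of all probe sets), with 5 at an unadjusted p under 0.05. Against the 5 lowest imazalil concentrations 1 of 36 was higher and 1 lower, beside 1.2% of all probe sets called. An unadjusted p under 0.05 in limma was found for 14 of 36, beside 5542 of all 54715 probe sets. There the glycine acyltransferase GLYAT rose by 0.51 (adjusted p = 0.000992) and BAAT, which conjugates bile acids with glycine or taurine, fell by 0.43 (adjusted p = 0.00129). SULT1B1, the neighbour of SULT1E1 in the gene table, differed by -0.63 from DMSO at 10 µM fenbuconazole (adjusted p = 0.112) and by -0.01 at 10 µM imazalil (adjusted p = 0.995). The 16 glutathione transferases measured beside the members lay between -0.22 and 0.31 of DMSO at 10 µM of any of the 3 chemicals, and the 5 other UGT genes between -0.23 and 0.35. At 10 µM 2,4-D 0 of 36 were called by limma against DMSO (0% of all probe sets) or against the 5 lowest concentrations (0.225%). An unadjusted p under 0.05 was found for 1 against DMSO and for 3 against the 5 lowest concentrations.

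Genes that supply the cofactors of conjugation were also not called. UGDH and UGP2 make UDP-glucuronic acid, PAPSS1 and PAPSS2 make PAPS, and GCLC, GCLM and GSS make glutathione. Of 10 such genes, transporters included, 0 were called by limma in either comparison at 10 µM of any chemical, and against DMSO 0 had an unadjusted p under 0.05. With fenbuconazole GSS differed from DMSO by -0.23, GCLM by 0.35 and PAPSS2 by -0.20 (limma adjusted p = 0.792, 0.834 and 0.844), and with imazalil GCLM by 0.35 (0.663). Of 16 receptors and factors listed as regulators, 11 had a probe set of their own. None of the 11 was called against DMSO by limma, with 3, 4 and 0 at an unadjusted p under 0.05 for fenbuconazole, imazalil and 2,4-D. The lowest adjusted p there belonged to PPARA, a receptor for fatty acids, with differences of 0.31 for fenbuconazole (adjusted p = 0.165) and 0.36 for imazalil (0.152), and NFE2L2, which encodes NRF2, differed by 0.29 and 0.37 (0.534 and 0.325). NR1I3, which encodes CAR, differed by -0.41 from DMSO with fenbuconazole (0.638) and by -0.47 from its 5 lowest concentrations (0.0881). Against the 5 lowest imazalil concentrations the nuclear receptor RORA fell by 0.48 (adjusted p = 0.0336) and CEBPA rose by 0.36 (adjusted p = 0.0352).

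At 10 µM of either fungicide the phase I genes listed for scale moved far more on the log2 scale than any member. At 10 µM imazalil CYP1A1, an AHR target, rose by 5.41 on the log2 scale (SE 0.25, limma adjusted p = 4.06e-14), CYP2B6, a CAR target, by 3.33 and CYP3A4, a PXR target, by 2.70. With 10 µM fenbuconazole the rises were 2.35, 1.78 and 2.23. Under 10 µM 2,4-D none of the 3 was called against DMSO, and CYP3A4 rose by 0.55 against the 5 lowest concentrations (limma adjusted p = 0.0118).

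The labelled cell type was checked by markers. The mean log2 value of 10 hepatocyte genes lay between 11.68 and 11.78 in the DMSO arrays, and between 11.39 and 11.58 at 10 µM imazalil, 11.44 and 11.70 at 10 µM fenbuconazole and 11.66 and 11.74 at 10 µM 2,4-D. In this list AHSG (fetuin-A) fell by 1.26 with imazalil (limma adjusted p = 7.11e-05) and by 0.83 with fenbuconazole (0.0487) against DMSO, and the other 9 were not called in that comparison. CPS1, the first enzyme of the urea cycle, fell by 0.41 against the 5 lowest imazalil concentrations (limma adjusted p = 0.0341). Of 7 measured biliary genes SPP1 rose (0.86 with imazalil and 0.53 with fenbuconazole), and KRT7, EPCAM, CFTR and CLDN4 stayed below 4. With each fungicide 6 of the 7 were not called against DMSO, and the median difference of the list was -0.027 with imazalil and 0.098 with fenbuconazole. Of 6 mesenchymal genes COL3A1 fell by 0.82 against DMSO with imazalil. The mean of the list lay below the DMSO arrays of its set, without overlap, at 10 µM of all 3 chemicals: between 5.59 and 5.83 with imazalil (DMSO 5.91 to 6.03), 5.77 and 5.93 with fenbuconazole (5.99 to 6.07) and 5.88 and 5.99 with 2,4-D (6.04 to 6.10). All endothelial genes but 1 and all immune genes but 1 of the 5 in each list lay below 4, and the exception among immune genes, CD14, rose by 0.88 with imazalil. The part of these shifts in the changes of SULT1E1 and SULT2A1 was not tested.

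For each member, the genes whose differences from DMSO over the 27 conditions ran most like its own were listed by Spearman's rho, as a description, since all conditions share the 3 DMSO arrays. For SULT1E1 they were AKR1C4 (0.763), LMBR1L (0.75) and ADH4 (0.734), of which AKR1C4 is a hepatic steroid reductase and ADH4 a hepatic alcohol dehydrogenase. For SULT2A1 they were GALNT10 (0.867), NDUFA8 (0.833) and RPA3 (0.814), and for UGT2B4 PARD6B (0.94), SOS2 (0.918) and TAF2 (0.916). Between the probe sets of 1 gene the same measure was 0.621 for SULT1E1 and 0.722 for SULT2A1, but 0.285 for GSTA1 and 0.102 for GSTA4, and the 3 pairs of UGT2B15 probe sets gave 0.303, 0.227 and 0.476.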

How the data were processed

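Gene expression was measured on Affymetrix HT HG-U133+ PM arrays. Per the labels and the study's methods, the authors deposited log2 values made by RMA in Partek. Each chemical's arrays were normalized in a run of their own together with the DMSO arrays, which gave 30 arrays per set and 90 columns. The Partek version was not given in the sources used here. Arrays hold no counts, so that their number, 3 per group, limits the precision.

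From these log2 values, group means were fitted in each set with limma 3.58.1 in R 4.3.3, without a filter. Each concentration was compared with DMSO and 10 µM with the mean of the 5 lowest concentrations, and a moderated F tested all 9 concentrations. Chemicals were compared over the 81 treated columns after the DMSO mean of each set had been subtracted. P-values were adjusted by Benjamini-Hochberg over 54715 probe sets, and called means an adjusted p under 0.05. The fits were tested on simulated data. Probe sets were named from the platform annotation (40920 with 1 symbol, 864 with several, 12931 with none), and only those with 1 symbol were named. Members, gene lists and motifs were chosen with earlier results of these data known, and TATAAA was added after the sequences had been read. Array values were given for members past the threshold or with the smallest p, and from each list up to 4 genes with the smallest adjusted p were named. Promoter windows came from RefSeq, and some items of the gene and motif lists are not reported here.

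The code P1 to P3 in the labels was taken as the batch of cells. After subtraction of group means, arrays of the same code correlated at a mean r of 0.0979, 0.094 and 0.117 in the fenbuconazole, imazalil and 2,4-D sets, and arrays of different codes at -0.0489, -0.0468 and -0.0582. For 2,4-D the replicate number of the title often differs from this code, and 2 arrays, at 0.001 and 0.003 µM, carry the same sample code. Alternatives were the batch as a block, each batch left out, median-centred arrays, a filter on dim probe sets, another variance prior, 1 probe set a gene, a linear trend and, chosen after seeing the data, the fits without those 2 arrays.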

Additional observations from a re-analysis of the deposited data

Results flagged for a closer look

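At 10 µM the response differed between chemicals in 3 member probe set comparisons, each by a test of the difference itself in limma. SULT1E1 (219934_PM_s_at) differed by -1.07 between imazalil and 2,4-D and by -0.72 between fenbuconazole and 2,4-D. SULT2A1 (206292_PM_s_at) differed by 0.42 between imazalil and 2,4-D. The adjusted p were 8.35e-05, 0.0379 and 0.00843. Without any 1 batch the first call held, whereas the second (adjusted p 0.0894 to 0.388) and the third (0.0965 to 0.329) were lost each time, and the second was also lost with centred arrays (0.0608). All 3 comparisons use the same 3 DMSO arrays, and the SULT1E1 comparisons share the 2,4-D arrays.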

How the results depend on the processing

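Beside the 12 counts of called members, 108 member differences at 10 µM were recomputed. Among settings that left out no batch, 61 recomputed counts stayed within 1.5 times and 7 moved. These settings include the linear trend, fitted without the DMSO arrays, and the fits without the 2 arrays with the same sample code. With the variance prior that follows the level, 1 member was called in the fenbuconazole F test and 1 for 2,4-D against its 5 lowest concentrations. The linear trend called 1 for imazalil. Fenbuconazole against imazalil gave 1 with the P code as a replicate block, 1 above the median level and 1 with 1 probe set a gene, and fenbuconazole against 2,4-D gave 0 with centred arrays. The replicate block changed no other call. Of the differences only UGT2B15 217175_PM_at for imazalil against DMSO changed sign, to 0.013 with centred arrays. Without 1 batch, called members ranged from 0 to 0 for imazalil against DMSO, in its F test and for fenbuconazole against 2,4-D, from 0 to 1 for fenbuconazole against its 5 lowest concentrations and from 1 to 1 for imazalil against 2,4-D. Fewer arrays enter these fits. In 36 of the 108 differences at least 1 such fit changed the sign, none of them called with all arrays (smallest adjusted p 0.805). The 2 arrays with the same sample code changed no count when left out. For fenbuconazole 10 µM against DMSO, the ranges were UGT2B4 206505_PM_at -0.15 to 0.46, UGT2B15 207392_PM_x_at -0.011 to 0.022, UGT2B15 216687_PM_x_at -0.42 to 0.099, UGT2B15 217175_PM_at -0.21 to 0.13, SULT1E1 222940_PM_at -0.69 to 0.063 and GSTA4 235405_PM_at -0.039 to 0.16. For imazalil 10 µM against DMSO, the ranges were UGT2B15 217175_PM_at -0.086 to 0.12. For 2,4-D 10 µM against DMSO, the ranges were UGT2B4 206505_PM_at -0.38 to 0.20, GSTA1 215766_PM_at -0.034 to 0.20 and GSTA4 235405_PM_at -0.080 to 0.23. For fenbuconazole 10 µM against the 5 lowest concentrations, the ranges were UGT2B4 206505_PM_at -0.32 to 0.15, UGT2B15 207392_PM_x_at -0.046 to 0.0066, UGT2B15 216687_PM_x_at -0.43 to 0.043, UGT2B15 217175_PM_at -0.16 to 0.12 and GSTA4 235405_PM_at -0.12 to 0.047. For imazalil 10 µM against the 5 lowest concentrations, the ranges were UGT2B4 206505_PM_at -0.086 to 0.25, UGT2B15 217175_PM_at -0.19 to 0.17 and GSTA4 202967_PM_at -0.0034 to 0.042. For 2,4-D 10 µM against the 5 lowest concentrations, the ranges were SULT1E1 222940_PM_at -0.028 to 0.14 and GSTA1 215766_PM_at -0.021 to 0.24. For fenbuconazole against imazalil at 10 µM, the ranges were UGT2B4 206505_PM_at -0.31 to 0.10, UGT2B15 216687_PM_x_at -0.073 to 0.26, UGT2B15 217175_PM_at -0.33 to 0.22, SULT1E1 222940_PM_at -0.22 to 0.25 and SULT2A1 206293_PM_at -0.17 to 0.080. For fenbuconazole against 2,4-D at 10 µM, the ranges were UGT2B4 206505_PM_at -0.34 to 0.56, UGT2B15 216687_PM_x_at -0.27 to 0.38, UGT2B15 217175_PM_at -0.016 to 0.19, SULT2A1 206293_PM_at -0.12 to 0.43, GSTA1 203924_PM_at -0.046 to 0.071 and GSTA4 235405_PM_at -0.077 to 0.053. For imazalil against 2,4-D at 10 µM, the ranges were UGT2B4 206505_PM_at -0.033 to 0.75, UGT2B15 207392_PM_x_at -0.11 to 0.044, UGT2B15 216687_PM_x_at -0.20 to 0.20, UGT2B15 217175_PM_at -0.023 to 0.31 and GSTA1 215766_PM_at -0.13 to 0.15.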
